A study of Mus musculus with 10 samples.

Results

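The arrays of KRAB zinc finger and Prame-like genes near the ends of mouse chromosomes 4 and 2 were examined in chromosome contact maps of embryonic stem cells. The members were taken by position, in genome build mm9: every listed contact with an end in chr4:142.5-148.0 Mb or chr2:174.5-178.0 Mb, and every topologically associating domain (TAD) that overlaps these windows. They came to 358 of 17029 contacts listed in the series and 95 of 41342 TADs. The chromosome 4 window spans 5.5 Mb and held 343 of the contacts and 70 of the TADs, and the chromosome 2 window spans 3.5 Mb and held 15 contacts and 25 TADs. The windows were chosen by position after contacts listed in these libraries, and their recurrence, had been seen there, so the number and recurrence of contacts in them are a description and not a test.

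The data were 10 exo-Hi-C libraries, a form of Hi-C in which linear DNA left after ligation is digested by exonucleases. The cells were the mouse embryonic stem cell line ES-E14TG2a, grown without feeder cells in medium with LIF and inhibitors of MEK and GSK3b. Each of 5 genotypes had 2 libraries. They were the WT line, the single knockouts E1-KO, E2-KO and E3-KO, each lacking 1 of 3 enhancers, and the double knockout E1&E3-dKO, which lacks a pair of them. The labels do not tell where the enhancers lie, whether a knockout is 1 clone or several, or which library was treated with which of the exonuclease mixes named LRC and LIC. Nothing in them ties the replicates to separate cultures, so the spread behind each p-value is that between libraries and may be technical.

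KRAB zinc finger proteins bind DNA through tandem zinc fingers and recruit the corepressor KAP1, and many of them silence transposable elements in embryonic stem cells. Their genes have multiplied by local duplication and stand in long arrays of near copies. Prame-like genes encode leucine-rich repeat proteins, many of them active in germ cells and early embryos, and are arranged in similar arrays. A TAD is a stretch of chromosome whose parts contact each other more often than they contact their neighbours, and a listed contact is a pair of 10 kb bins with more joining reads than the deposited model expects at that distance.

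The gene content of the windows could not be read off directly, since the gene table at hand (RefSeq, GRCm38.p6) is of another build than the contact files, and no position was converted. By order of genes in that table, chromosome 4 carried a run of 41 genes from Pramel1 to Pramel13, 24 of them named as Prame-like or Oog genes. Beyond it was a run of 77 genes from Zfp990 to Zfp933, 17 of them named as Zfp genes or Rex2, and 52 of them pseudogenes. Chromosome 2 carried a run of 64 genes from Zfp968 to Zfp931, 10 of them with such a name, and 23 of them pseudogenes. Both are called zinc finger runs here. How alike the copies are was measured on promoters of 300 bases, 250 before the gene start and 50 after it. On chromosome 2, 23 of 39 promoters of the run had a copy of another gene of the run at 90% identity or more, against 1.35% of the other promoters of the chromosome compared with as many neighbours. On chromosome 4 the shares were 6 of 26 in the zinc finger run and 5 of 26 in the Prame-like run, against 2.32% and 2.22%.

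Of the 187 promoter pairs of such identity on chromosome 2, 101 had their genes on the same strand and 86 on opposite strands. Printed are the closest pairs that are not identical, compared without a shift, of genes on the same strand in each zinc finger run and of genes on opposite strands on chromosome 2. The median identity of a promoter to its best match was 97.7% in the chromosome 2 run. It was 77.1% in the chromosome 4 zinc finger run and 73.4% in the Prame-like run. The printed same-strand pairs, at 98.7% on chromosome 4 and 99.7% on chromosome 2, are above the median of their run. The opposite-strand pair, at 94.7%, is below it, because identical pairs and those matching best at a shift were left out. Gm14288 and Zfp970, also on opposite strands, reached 99.6% at a shift. Each sequence is from RefSeq, GRCm38.p6, and reads 5′ to 3′ on the strand of its gene, with the bases that differ from its partner in capitals.
Zfp600, chr4:146156577-146156876, plus strand: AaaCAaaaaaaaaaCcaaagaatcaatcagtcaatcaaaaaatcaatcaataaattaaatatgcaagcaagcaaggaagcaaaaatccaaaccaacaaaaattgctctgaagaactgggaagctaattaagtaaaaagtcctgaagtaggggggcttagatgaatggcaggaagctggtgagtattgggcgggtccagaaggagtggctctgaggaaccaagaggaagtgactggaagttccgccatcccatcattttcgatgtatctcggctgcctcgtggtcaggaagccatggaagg
Rex2, chr4:147021600-147021899, plus strand: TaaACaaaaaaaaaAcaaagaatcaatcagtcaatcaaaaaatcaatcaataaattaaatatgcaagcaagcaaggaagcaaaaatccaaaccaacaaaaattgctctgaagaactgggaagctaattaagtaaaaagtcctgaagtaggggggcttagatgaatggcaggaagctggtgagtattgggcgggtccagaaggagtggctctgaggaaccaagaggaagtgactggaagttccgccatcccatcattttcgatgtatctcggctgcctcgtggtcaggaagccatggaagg
Zfp968, chr2:175372186-175372485, plus strand: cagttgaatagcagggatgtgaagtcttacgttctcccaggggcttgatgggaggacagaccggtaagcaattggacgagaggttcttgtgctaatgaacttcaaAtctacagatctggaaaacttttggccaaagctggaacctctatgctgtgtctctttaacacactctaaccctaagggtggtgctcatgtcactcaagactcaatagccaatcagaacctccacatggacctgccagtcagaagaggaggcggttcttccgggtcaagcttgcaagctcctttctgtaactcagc
Zfp973, chr2:176670272-176670571, plus strand: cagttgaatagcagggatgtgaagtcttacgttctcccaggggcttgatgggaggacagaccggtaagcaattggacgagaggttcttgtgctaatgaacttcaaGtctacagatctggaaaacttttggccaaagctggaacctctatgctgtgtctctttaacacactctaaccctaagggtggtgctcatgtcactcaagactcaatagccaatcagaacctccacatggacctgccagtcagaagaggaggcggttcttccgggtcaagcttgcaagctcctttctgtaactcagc
Gm14288, chr2:175800989-175801288, minus strand: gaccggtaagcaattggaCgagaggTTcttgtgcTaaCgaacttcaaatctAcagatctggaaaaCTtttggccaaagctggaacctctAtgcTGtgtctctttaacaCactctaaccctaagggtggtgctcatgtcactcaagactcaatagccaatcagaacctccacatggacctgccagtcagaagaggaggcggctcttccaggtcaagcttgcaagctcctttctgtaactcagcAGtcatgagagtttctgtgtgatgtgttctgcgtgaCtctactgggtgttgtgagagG
Gm2026, chr2:175965105-175965404, plus strand: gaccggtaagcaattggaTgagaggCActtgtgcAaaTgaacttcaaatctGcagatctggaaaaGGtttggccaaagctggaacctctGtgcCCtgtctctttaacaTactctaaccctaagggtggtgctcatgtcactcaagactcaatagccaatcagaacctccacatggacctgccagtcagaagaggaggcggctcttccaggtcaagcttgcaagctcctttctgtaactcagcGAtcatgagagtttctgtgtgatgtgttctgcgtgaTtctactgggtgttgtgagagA
Zfp600 and Rex2 of the chromosome 4 run differed at 4 of 300 bases. Zfp968 and Zfp973 of the chromosome 2 run differed at 1 base, and Gm14288 and Gm2026, on opposite strands, at 16 bases. How the deposited lists treated reads that match more than 1 place was not given in the sources used here, and its part in the contacts described next was not tested.

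Contacts with an end in the chromosome 4 window mostly stayed inside it. Of the 343 listings, 301 (87.8%) had both ends in the window and 42 had 1 end outside. The number with both ends inside was 20 and 11 in the WT libraries, 20 and 27 for E1-KO, 77 and 62 for E2-KO, 13 and 35 for E3-KO, and 12 and 24 for E1&E3-dKO. Both E2-KO libraries were above the other 8, whose values overlapped between genotypes. Contacts outside both windows at 0.1 to 2.5 Mb numbered 720 and 408 for E2-KO, against 43 to 485 in the other 8. Counted with those, the window held 8.89% and 9.09% of contacts at 0.1 to 0.5 Mb for E2-KO, against 2.31% to 15.8%. At 0.5 to 1.5 Mb it held 8.66% and 15.4%, against 9.59% to 26.3%. At 1.5 to 2.5 Mb it held 13.4% and 22.2%, against 6.41% to 27.0%. The number leaving the window was 1 and 1 for WT, 1 and 2 for E1-KO, 9 and 3 for E2-KO, 6 and 4 for E3-KO, and 0 and 15 for E1&E3-dKO.

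**Figure D1:**
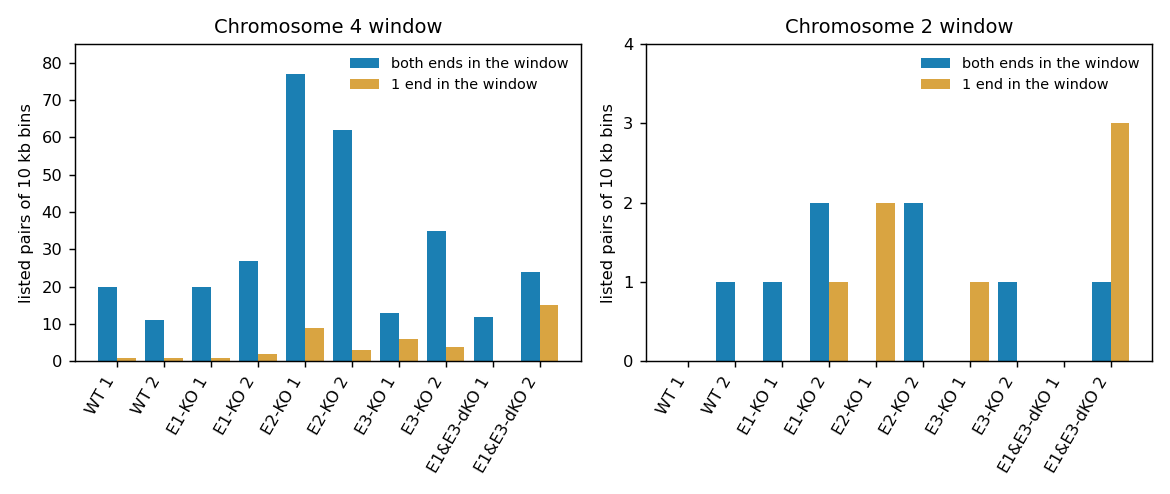
Listed pairs of 10 kb bins (vertical axis) in each of the 10 libraries (horizontal axis, genotype and replicate number) with both ends in the window or with 1 end in it, for the chromosome 4 window (left) and the chromosome 2 window (right). The E2-KO libraries have 77 and 62 pairs inside the chromosome 4 window and the other 8 between 11 and 35.

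The lists differ in length, from 466 pairs in WT replicate 2 to 6014 in E1&E3-dKO replicate 2, and neither file type gives the reads per library. Expressed as a share of its own list, contacts with an end in the chromosome 4 window made up 1.65% and 2.58% for WT, 1.97% and 5.60% for E1-KO, 2.46% and 6.19% for E2-KO, 2.30% and 2.66% for E3-KO, and 1.41% and 0.648% for E1&E3-dKO. E1-KO and E2-KO each had a high and a low library on this scale. The mean share was 2.11% ± 0.654 for WT (SD, n = 2) and 2.90% ± 1.96 over the knockouts (n = 8), a difference smaller than the spread among the knockouts (exact permutation over 45 choices of libraries, two-sided, p = 0.733). The squared gap between libraries of 1 genotype, summed over genotypes, was 0.911 times its mean over every way of pairing the libraries (exact permutation, one-sided, p = 0.299).

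With the 466 best pairs of every library, those with the smallest p, the E2-KO libraries held 37 and 37 pairs inside the chromosome 4 window and the other 8 between 8 and 27. With an adjusted p of at most 0.001 the counts were 69 and 56 for E2-KO and between 7 and 28 in the others. The titles of both E2-KO libraries begin with w326, as do those of WT replicate 1 and E3-KO replicate 2, which held 20 and 35 pairs. E2-KO replicate 1 also had the lowest recovered depth of the series, with 0.0147 contacts expected for 2 bins 1 Mb apart against 0.0641 to 0.275 in the other libraries, and the longest TAD list. Depth and title were not tested as sources of the E2-KO counts, and with 2 libraries against 2 an exact permutation test cannot give a p under 0.33.

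The contacts inside the chromosome 4 window formed 2 separate blocks. The first ran from 143.185 to 143.955 Mb, with 79 listings in 9 libraries (none in E3-KO replicate 1), and joined bins 0.22 to 0.48 Mb apart. The second ran from 144.995 to 147.795 Mb, with 222 listings in all 10 libraries, and joined bins 0.18 to 2.17 Mb apart, with a median of 1.225 Mb. Beyond 147.225 Mb it held only the pair of 147.555 and 147.795 Mb, listed in WT replicate 1 alone. None of the 301 listings joined a bin of the first block to a bin of the second, although the space between the blocks is shorter than many contacts of the second.

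In the first block WT libraries had 4 and 2 listings, E1-KO 8 and 6, E2-KO 24 and 15, E3-KO 0 and 12, and E1&E3-dKO 3 and 5. In the second block WT libraries had 16 and 9, E1-KO 12 and 21, E2-KO 53 and 47, E3-KO 13 and 23, and E1&E3-dKO 9 and 19. In each block both E2-KO libraries were above the other 8 in these counts, which are not shares of the contacts at such distances. The ends used 115 of the 550 bins of the window. The bins that ended most contacts were 5 bins of the second block with 5 partners each. They lay at 145.235, 145.265, 145.285, 146.325 and 147.085 Mb and were listed in 5, 6, 5, 3 and 5 libraries.

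Some pairs of bins came back in library after library. Counting pairs as the same where both ends lay within 1 bin, the 301 listings made 69 distinct pairs, of which 17 (24.6%) were in at least 5 libraries, 8 in at least 8, 2 in 9 and none in all 10. Over all contacts of the series, 1.47% of 13963 distinct pairs were in at least 5 libraries, and among contacts elsewhere at 0.1 to 2.5 Mb, the range of distances in the window, 7.36% of 1373 were. In 1 library only were 26 (37.7%) of the 69 pairs, against 94.5% over the series and 71.4% elsewhere at those distances. The windows were picked for such contacts, so these shares carry no test. Leaving out both E2-KO libraries left 40 distinct pairs, with 12 in at least 5 of the other 8 libraries. The 17 recurrent pairs were held by every library in part, 14 and 8 of them by WT, 12 and 13 by E1-KO, 13 and 16 by E2-KO, 8 and 16 by E3-KO, and 8 and 14 by E1&E3-dKO.

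The pair of 145.215 and 146.635 Mb was listed in 9 libraries, as was 1 other pair of the window. Its reads were 15 and 13 for WT, 14 and 26 for E1-KO, 42 in E2-KO replicate 2, 17 and 16 for E3-KO, and 10 and 18 for E1&E3-dKO. E2-KO replicate 1 did not list it, E2-KO replicate 2 had the highest count, and the values of the other genotypes overlapped. A count of 16, the median, has an exact Poisson 95% interval of 9.15 to 26.0 reads, which covers counting error only.

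The pair of 145.185 and 147.165 Mb, 1.98 Mb apart, was also in 9 libraries. Its reads were 19 in WT replicate 1, 20 and 7 for E1-KO, 26 and 26 for E2-KO, 13 and 9 for E3-KO, and 11 and 7 for E1&E3-dKO, and WT replicate 2 did not list it. Both E2-KO libraries had the highest counts, 6 reads above E1-KO replicate 1. This pair spans most of the second block.

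In the first block the pair of 143.375 and 143.805 Mb was in 8 libraries. It had 10 and 10 reads for WT, 14 and 14 for E1-KO, 18 and 15 for E2-KO, 9 in E3-KO replicate 2 and 9 in E1&E3-dKO replicate 2. The pair of 143.625 and 143.895 Mb, also in 8 libraries, had 12 reads in WT replicate 1, 15 and 15 for E1-KO, 23 and 20 for E2-KO, 14 in E3-KO replicate 2, and 12 and 7 for E1&E3-dKO. In both pairs the E2-KO libraries had the highest counts and neither was listed in E3-KO replicate 1.

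The pair of 145.045 and 146.015 Mb had the opposite pattern and was found in all 8 libraries that are not E2-KO. Its reads were 12 and 10 for WT, 22 and 18 for E1-KO, 24 and 17 for E3-KO, and 16 and 15 for E1&E3-dKO. The nearest contact listed in E2-KO replicate 1 had 5 reads and an end 60 kb away, and in E2-KO replicate 2 the nearest was 240 kb away. The reads of a pair that is not listed are not in the files. A pair can be unlisted because its adjusted p was above 0.01 or because of the bias factor of a bin, which lies between 0.5 and 2 for every listed bin. In the 8 libraries that list the pair the factor of the bin at 145.045 Mb was 1.47 to 1.96, and no E2-KO contact names either bin, so its factor in E2-KO is not known. Its part in the loss was not tested.

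Losses and gains were counted as pairs in both libraries of 1 side and neither of the other, WT or knockout. Of the 75 pairs of the series held by both WT libraries, 7 had an end in the chromosome 4 window. E1-KO lost 1 of these 7, E2-KO lost 2, E3-KO lost 0 and E1&E3-dKO lost 2, where the losses over the whole series were 12%, 8%, 4% and 13.3% of the 75. No test was run on counts out of 7 pairs. The 2 pairs lost in E2-KO were 145.045 to 146.015 Mb and 145.195 to 146.615 Mb. The second of these was in only 4 libraries and was also 1 of the 2 pairs lost in E1&E3-dKO. It had 10 and 8 reads for WT, 7 in E1-KO replicate 2 and 8 in E3-KO replicate 1. The other library of E1-KO and of E3-KO did not list it. E2-KO replicate 2 listed 42 reads 20 kb away from it, at 145.215 and 146.635 Mb. The bin at 146.615 Mb had a factor of 1.80 to 1.93 where it was listed, and no E2-KO contact names it.

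Gains were most frequent in E2-KO, where 21 of the 35 window pairs held by both E2-KO libraries were in neither WT library. This share of 60% was near the 65.2% found over all pairs of the series in that comparison. Of the 21 gained pairs 5 lay in the first block, 14 in the second and 2 left the window, and 9 were in no other library, 10 in 1 or 2 of the other 6 libraries and 2 in 3 or more. E1-KO gained 1 of 12, E3-KO 1 of 9 and E1&E3-dKO 0 of 7, beside 23.4%, 19.7% and 18.6% over the series. All 4 comparisons share the WT libraries.

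The gained pair with the smallest mean p in E2-KO joined 145.455 and 146.685 Mb with 22 and 24 reads for E2-KO and 6 in E3-KO replicate 2. The pair of 146.325 and 147.105 Mb had 9 and 8 reads for E2-KO and was in no other library. The pair of 145.055 and 146.655 Mb had 14 and 9 reads for E2-KO and 7 in E1&E3-dKO replicate 2. All 3 lie in the second block. Of the 69 distinct pairs of the window 26 (37.7%) were listed in E2-KO libraries only, against 22.8% of all pairs of the series and 29.6% of those elsewhere at 0.1 to 2.5 Mb. In both E2-KO libraries and no other were 9 pairs (13%), against 0.845% and 4.3%. The windows were picked for recurrent contacts, so these shares carry no test. Among pairs in 2 or more libraries they were 9 of 43, against 118 of 771 over the series and 59 of 392 elsewhere at 0.1 to 2.5 Mb.

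Reads per pair were few. The median of the pairs inside the chromosome 4 window was 9.5 and 8 reads for WT, 11 and 9 for E1-KO, 7 and 9 for E2-KO, 10 and 8 for E3-KO, and 9 and 7 for E1&E3-dKO, with single pairs between 3 and 42 reads. The mean of the medians was 8.75 ± 1.06 for WT (SD, n = 2) and 8.75 ± 1.39 in the knockouts (n = 8), a difference of 0 (exact permutation, two-sided, p = 1). Pairs elsewhere at 0.1 to 2.5 Mb had library medians of 7 to 15 reads and were above the window's in 8 of 10 libraries. By distance, reads were higher in the window in 2 of 10 libraries at 0.1 to 0.5 Mb (medians over all listings of 9 and 13), in 2 of 10 at 0.5 to 1.5 Mb (8 and 8) and in 7 of 10 at 1.5 to 2.5 Mb (7 and 5).

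A count of reads depends on distance, so each count was also divided by the contacts expected for that pair of bins, recovered from its deposited p-value and count. The median of this ratio was 97.8 inside the chromosome 4 window, 61.7 in the first block and 124 in the second, against 49.7 elsewhere at 0.1 to 2.5 Mb. It was higher in the window than elsewhere in 10 of 10 libraries and higher in the second block than in the first in 9 of 9. The window's contacts were longer, however, with a median of 0.97 Mb against 0.35 Mb. Between 0.1 and 0.5 Mb the ratio was higher in the window in 10 of 10 libraries, with medians over all listings of 50.6 and 19.8. Between 0.5 and 1.5 Mb it was higher in 7 of 10, with 107 against 130 over all listings, and between 1.5 and 2.5 Mb in 3 of 10, with 196 against 255. The window's ratio was thus the higher in every library only in the shortest of the 3 ranges of distance.

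**Figure D2:**
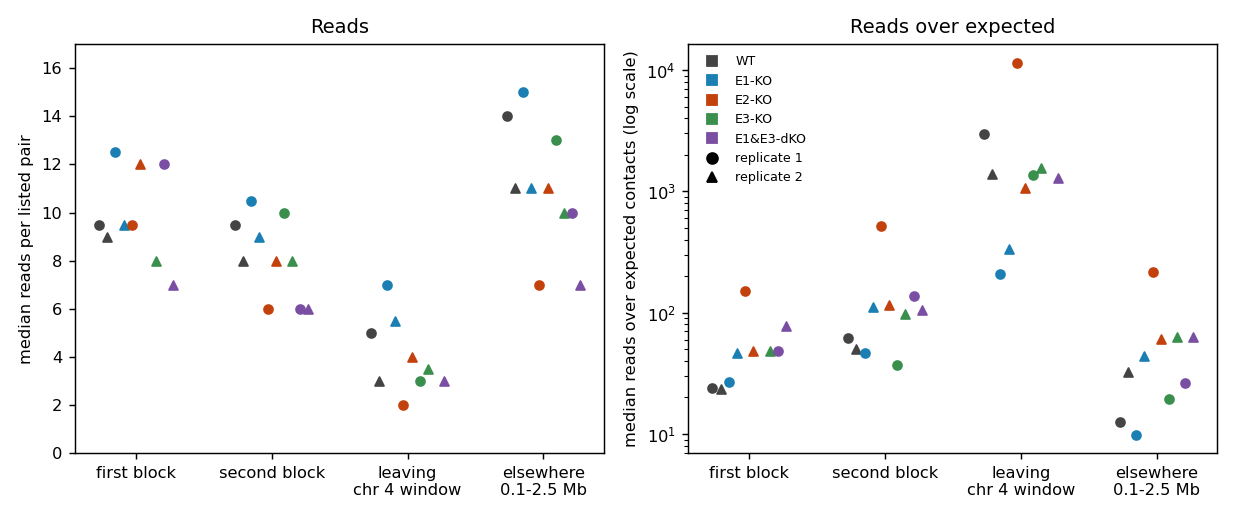
Median reads per listed pair (left, linear axis) and median ratio of reads to expected contacts (right, log axis) in each library, coloured by genotype, for the first and second block of the chromosome 4 window, for pairs leaving that window and for pairs elsewhere at 0.1 to 2.5 Mb. Pairs leaving the window have the fewest reads, medians of 2 to 7, and the highest ratios.

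The 42 contacts that left the chromosome 4 window had a median of 3 reads, and 37 of them had fewer than 5. They reached 3.55 to 98.9 Mb, 29 of them 20 Mb or more, and their median ratio to expected contacts was 1448. Reads per pair were lower than inside the window in 9 of 9 libraries that had both kinds. They made 32 distinct pairs, of which 29 (90.6%) were in 1 library, near the 94.5% of all distinct pairs of the series. E1&E3-dKO replicate 2 alone held 15 of the 42, and it also had the longest list of the series.

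The share of window contacts that stayed inside was 95.2% and 91.7% for WT, 95.2% and 93.1% for E1-KO, 89.5% and 95.4% for E2-KO, 68.4% and 89.7% for E3-KO, and 100% and 61.5% for E1&E3-dKO. It averaged 93.5% ± 2.53 for WT and 86.6% ± 13.9 over the knockouts, and the difference of 6.83 percentage points did not pass (exact permutation, two-sided, p = 0.711). The low values came from E3-KO replicate 1 and E1&E3-dKO replicate 2, while the other library of each was at 89.7% or 100%.

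Of the leaving pairs 3 were in more than 1 library. The pair of 145.435 and 148.985 Mb was listed in 6 libraries, with 7 and 4 reads for E1-KO, 4 and 15 for E2-KO, and 4 and 6 for E3-KO, and in neither WT nor E1&E3-dKO. The same outside bin was joined to 145.075 Mb in 3 libraries, with 7 reads in E1-KO replicate 2 and 4 and 4 for E2-KO. These 9 listings were all but 1 of the 10 that name the bin at 148.985 Mb in the whole series. The third joined 142.985 to 46.485 Mb, 96.5 Mb away, with 5 reads in WT replicate 1 and 3 and 4 for E3-KO, and its outside bin had no other contact than with 142.975 and 142.985 Mb.

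On the contact map, many pairs of the chromosome 4 window lay on lines along which 1 end moves up as the other moves down by as much, so that their midpoint stays fixed. This pattern was noticed in these data and is described, not tested. A pair was said to have a mirror neighbour where another listed pair had its ends moved by 20 to 50 kb in opposite directions, within 1 bin, and a parallel neighbour where both ends moved the same way. The 301 listings name 116 different pairs of bins. Of these 57 (49.1%) had a mirror neighbour and 31 (26.7%) a parallel one, whereas among 1749 pairs elsewhere at 0.1 to 2.5 Mb the shares were 14.6% and 17.8%.

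The pattern held in most libraries taken alone. The share with a mirror neighbour inside the window was 45% and 0% for WT, 45% and 51.9% for E1-KO, 58.4% and 46.8% for E2-KO, 30.8% and 57.1% for E3-KO, and 41.7% and 41.7% for E1&E3-dKO. It exceeded the share with a parallel neighbour in 9 of 10 libraries in the window and in 0 of 10 elsewhere. WT replicate 2, with 11 pairs, was the exception. In the first block 22 of 27 pairs had a mirror neighbour and 0 a parallel one, while in the second 35 and 31 of 89 did. Without both E2-KO libraries the share in the window was 47.6%.

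**Figure D3:**
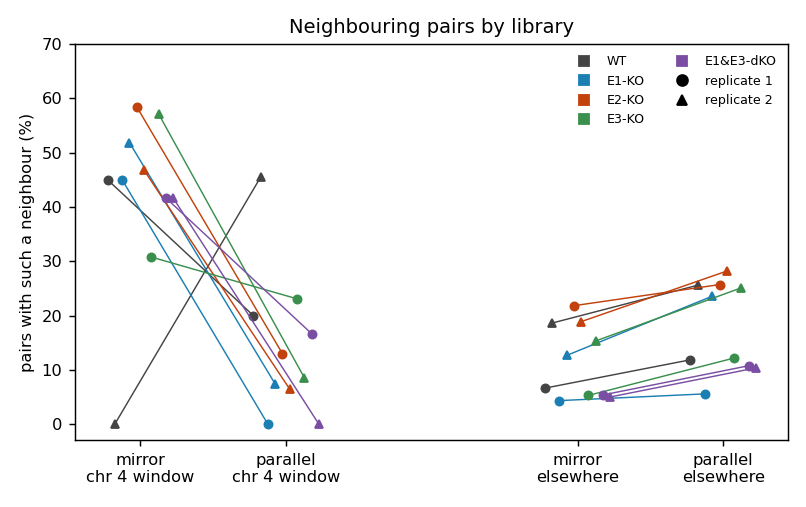
Share of listed pairs (vertical axis, percent) with a mirror or a parallel neighbour in each library, in the chromosome 4 window (left) and elsewhere at 0.1 to 2.5 Mb (right); lines join the 2 shares of a library, coloured by genotype. The share with a mirror neighbour is the higher in 9 of 10 libraries in the window and in 0 of 10 elsewhere.

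For lines a looser rule was used: opposite moves of 10 to 50 kb, within 1 bin, linked pairs, so adjacent bins also counted. Chains of at least 4 pairs made 6 lines, which held 52 of the 116 pairs and 159 of the 301 listings (52.8%). In the first block their midpoints were at 143.345, 143.595 and 143.755 Mb, and in the second at 146.088, 146.175 and 146.88 Mb. The second and the third line were each in 9 libraries, with 27 and 44 listings, and joined bins 0.32 to 0.48 and 0.25 to 0.42 Mb apart. The fifth, with 45 listings in 9 libraries, joined bins 1.87 to 2 Mb apart, and the sixth, with 31 listings in 9 libraries, bins 0.24 to 0.53 Mb apart. The first was in E2-KO replicate 1 only, with 4 pairs next to each other on the map. It was a line only because moves of 10 kb counted. The fourth was in 3 libraries, with 8 listings of 4 to 9 reads.

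**Figure D4:**
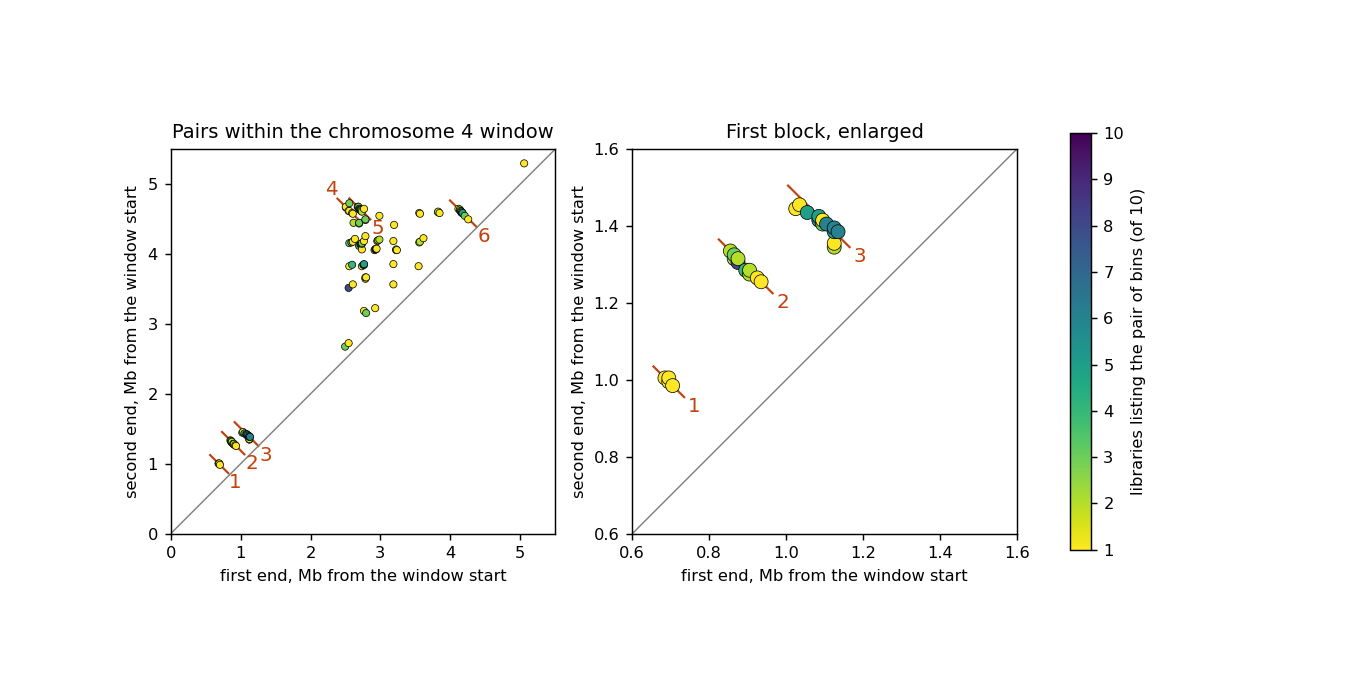
Pairs of bins listed inside the chromosome 4 window by the positions of both ends, in Mb from the window start (left), and the first block enlarged (right). Colour gives the number of libraries listing that pair of bins. The numbered lines are the 6 chains, in which moves of 10 kb also linked pairs. The points fall in 2 blocks, with none joining them. Of the 116 pairs 52 are on the lines, which run at right angles to the diagonal, and the rest are on none.

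Counts on the lines differed between libraries as those of the whole window did. The third line had 3 and 1 listings for WT, 5 and 5 for E1-KO, 10 and 7 for E2-KO, 0 and 7 for E3-KO, and 2 and 4 for E1&E3-dKO. The fifth had 5 and 0 for WT, 1 and 7 for E1-KO, 9 and 9 for E2-KO, 4 and 4 for E3-KO, and 3 and 3 for E1&E3-dKO. E2-KO libraries were at or above every other library on both lines in these counts, which are not shares of the contacts at such distances.

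In the TAD lists the first block held recurrent TADs. The TAD of 143.18 to 143.51 Mb, or one overlapping it reciprocally by 80%, was in all 10 libraries. Its score, the authors' own, was 2.01 and 2.37 for WT, 2.13 and 2.43 for E1-KO, 11.7 and 3.64 for E2-KO, 2.20 and 2.84 for E3-KO, and 1.97 and 3.00 for E1&E3-dKO. Both E2-KO values were above the other 8. The TAD of 143.61 to 143.9 Mb was in 8 libraries, absent from WT replicate 2 and E3-KO replicate 1, and scored 2.12 in WT replicate 1, 1.81 and 2.73 for E1-KO, 12.8 and 3.79 for E2-KO, 3.01 in E3-KO replicate 2, and 2.103 and 2.64 for E1&E3-dKO. Again both E2-KO libraries scored highest.

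The midpoints of these TADs lay close to mirror lines, of which only the line at 143.755 Mb recurred, in 9 libraries. In 7 libraries the midpoint of the first TAD was at 143.345 to 143.35 Mb, within 10 kb of the first line, and in 8 libraries that of the second TAD was at 143.75 to 143.755 Mb, within 10 kb of the third line. No TAD midpoint lay that close to the other 4 lines. The line at 143.345 Mb was 4 adjacent pairs of E2-KO replicate 1, linked only because moves of 10 kb counted. No other library listed a contact of it, so in them the TAD midpoint there matched no listed line. The TADs and the contacts come from the same reads, so these are not independent observations.

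The middle of the second block held no TAD in most libraries. From 145.3 to 147.17 Mb no TAD was listed in the 8 libraries that are not E2-KO, with uncovered stretches of 1.88 to 1.95 Mb. E2-KO replicate 1 listed TADs of 145.41 to 145.74 Mb (score 6.91) and 146.04 to 146.34 Mb (score 9.70) there, and E2-KO replicate 2 listed 145.26 to 146.16 Mb (score 3.40). The ends of these 3 TADs did not coincide. Of the 222 listings of the second block 77 had both ends in the stretch, 129 had 1 end in it and 16 had none. Of all 301 contacts inside the window, 38 (12.6%) lay within a single TAD of their own library, against 37.9% of contacts elsewhere at 0.1 to 2.5 Mb. All 38 joined bins less than 0.5 Mb apart, where they were 31.9% of the window's contacts and the share elsewhere was 54.7%. Between 0.5 and 1.5 Mb the shares were 0% and 20.9%.

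Either side of this stretch the TADs recurred. The TAD of 147.18 to 148 Mb was in 9 libraries, absent from E2-KO replicate 1, with scores of 2.30 to 2.59. The TAD of 144.44 to 145.29 Mb was in 6 libraries, both WT, E1-KO replicate 2, E3-KO replicate 1 and both E1&E3-dKO, with scores of 2.23 to 2.56. In 3 others, E1-KO replicate 1, E2-KO replicate 2 and E3-KO replicate 2, a shorter TAD of 144.46 to 144.98 Mb took its place. The TAD of 142.61 to 143 Mb was in 6 libraries.

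**Figure D5:**
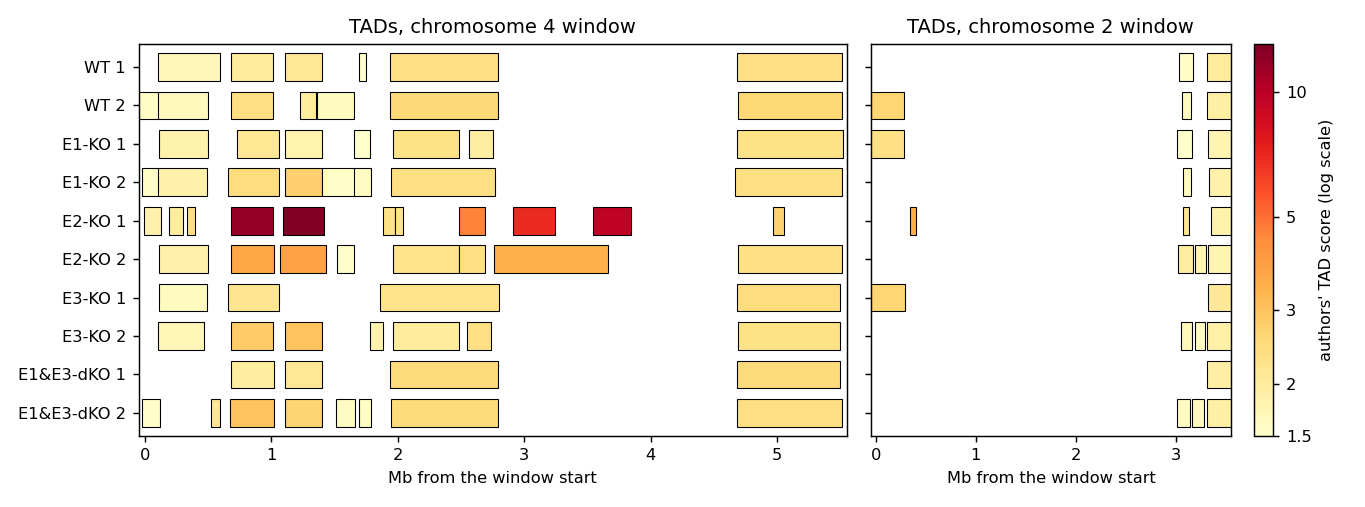
TADs of each library (rows, genotype and replicate number) in the chromosome 4 window (left) and the chromosome 2 window (right), with position in Mb from the window start on the horizontal axis, cut at the window's edge, and the authors' score as colour on a log scale. On chromosome 4 the stretch from 2.8 to 4.7 Mb is empty except in the E2-KO libraries, and on chromosome 2 the array between the outer TADs is empty in all 10.

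Numbers of TADs overlapping the chromosome 4 window were 6 and 7 for WT, 7 and 8 for E1-KO, 11 and 8 for E2-KO, 4 and 7 for E3-KO, and 4 and 8 for E1&E3-dKO. The mean was 6.5 ± 0.707 for WT and 7.13 ± 2.30 over the knockouts (exact permutation, two-sided, p = 0.867). Median lengths averaged 405 kb ± 7.07 for WT and 366 kb ± 161 over the knockouts (exact permutation, two-sided, p = 0.689). Per Mb the window held fewer TADs than the genome as listed in 8 of 10 libraries.

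Boundaries of the chromosome 4 window recurred about as often as others. Its 40 distinct boundaries, matched within 25 kb, included 4 (10%) in at least 8 libraries, against 9.06% of 28346 over the series. These were 143.18 Mb and 147.18 Mb, in 9 libraries each, and 144.44 Mb and 142.6 Mb, in 8 each. None was in all 10, and 16 (40%) were in 1 library, against 2.99% and 43.9% over the series. Without both E2-KO libraries 24 boundaries remained to be counted, with 1 in all of the other 8.

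Of 6 window boundaries held by both WT libraries, E1-KO lost 1 and E2-KO lost 1, and E3-KO and E1&E3-dKO lost 0, beside 12.5%, 13.9%, 9.34% and 12% over the series. The boundary lost in E1-KO was at 143.51 Mb, where both E1-KO libraries had an end at 143.56 Mb in its place. That lost in E2-KO was at 145.29 Mb, where E2-KO replicate 2 had an end nearby at 145.26 Mb. E2-KO gained 4 of 7, among them 143.93 and 145.19 Mb, which no other library held, and 144.98 Mb, beside 35.8% over the series. Close to the gained boundary at 143.93 Mb, one at 143.9 Mb was in 7 libraries, WT replicate 1 and E2-KO replicate 1 among them. E1-KO gained 3 of 11, E3-KO 2 of 5 and E1&E3-dKO 0 of 7, beside 10.9%, 13.9% and 18.6%. No test was run on counts from pools of this size.

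The chromosome 2 window had few contacts and few TADs. It held 8 listings with both ends inside, in 6 libraries, and 7 with 1 end inside, 15 of 17029 in all. The 8 listings made 2 distinct pairs. One joined 174.895 and 176.855 Mb, 1.96 Mb apart, in 6 libraries, with 8 reads in WT replicate 2, 8 and 6 for E1-KO, 5 in E2-KO replicate 2, 5 in E3-KO replicate 2 and 7 in E1&E3-dKO replicate 2. Every genotype had it in at least 1 library and only E1-KO in both. The other joined 174.895 to 177.105 Mb with 6 reads in E1-KO replicate 2, so that all 8 listings had an end at 174.895 Mb. The ratio of reads to expected contacts in them was 88.6 to 450.

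The 7 contacts leaving the chromosome 2 window had 2 or 3 reads each. Each was in 1 library, as were 94.5% of all distinct pairs of the series. E1&E3-dKO replicate 2 held 3, E2-KO replicate 1 held 2, and E1-KO replicate 2 and E3-KO replicate 1 held 1 each. As shares of the lists, contacts with an end in the window averaged 0.107% ± 0.152 for WT and 0.147% ± 0.183 over the knockouts (exact permutation, two-sided, p = 0.756). Both WT replicate 1 and E1&E3-dKO replicate 1 had none, which in lists of 1273 and 851 pairs leaves little to compare. No pair of the window was held by both WT libraries, so none could be lost, and of the 1 pair held by both libraries of a knockout, in E1-KO, none was gained.

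No library listed a TAD between 174.9 and 177.51 Mb on chromosome 2, a stretch of 2.61 Mb. The TADs of this window sat at its edges. That of 177.81 to 178.15 Mb was in 8 libraries, with scores of 1.76 to 2.08, and that of 174.12 to 174.78 Mb in 3, WT replicate 2, E1-KO replicate 1 and E3-KO replicate 1, with scores of 2.32 to 2.63. The boundary at 177.81 Mb was in 9 libraries, 1 of 11 distinct boundaries (9.09%) in at least 8. The number of TADs was 2 and 3 for WT, 3 and 2 for E1-KO, 3 and 3 for E2-KO, 2 and 3 for E3-KO, and 1 and 3 for E1&E3-dKO (WT against knockouts, exact permutation, two-sided, p = 1). TADs per Mb were fewer than over the genome in 10 of 10 libraries.

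Across both windows 16 tests compared the share of contacts, the share staying inside, reads, and number and length of TADs, 8 for WT against all knockouts and 8 for genotype. The lowest p was 0.299 (exact permutation), and after Benjamini-Hochberg adjustment each was 1. The smallest p these tests can give is 0.0222 for WT against knockouts and 0.00106 for genotype.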

How the data were processed

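Each of the 10 libraries has 2 deposited files. One gives contacts between 10 kb bins. Its columns carry no header, and their meaning was read from the values: a read count per contact, which the authors deposited unscaled, the authors' p-value, their p-value after adjustment, which never exceeds 0.01, and a bias factor per bin, deposited by the authors as a ratio to an average bin, between 0.5 and 2 in every list. The other gives TADs with the authors' deposited score, never under 1.5, whose unit is not stated. Per the submitters' processing notes, HiC-Pro 2.10.0 and HOMER were used on mm9; which tool made the pair lists is not given in the sources used here. The deposited counts of WT replicate 2 hold each of its 466 pairs in both orientations, on 932 lines, and were used once. Reads per library are not in the files, so total depth is unknown.

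Expected contacts were recovered from each deposited count and p-value by solving for a Poisson mean, which assumes that the authors used that formula; depth is the expected contacts at 1 Mb. Recovery, matching of pairs and permutation tests were tested on simulated data. Pairs matched within 1 bin at both ends, boundaries within 25 kb (20 kb in whole bins), TADs at 80% reciprocal overlap. Promoters were compared without gaps at shifts of up to 50 bases, over at least 250. Python 3.11.15, numpy 2.4.6, scipy 1.17.1 and pandas 2.3.3 were used.

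Named regions were the 5 pairs, TADs and boundaries in most libraries per window, up to 3 lost and 3 gained per knockout, and the 3 bins ending most pairs with those tied with them; recurrent leaving pairs, mirror lines and the E2-KO counts were chosen after their values were seen. The windows and lists were chosen with earlier results of these data known. The share staying inside and reads per pair were not tested on chromosome 2, where WT replicate 1 holds no pair.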

Additional observations from a re-analysis of the deposited data

How the results depend on the processing

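No alternative of the 16 tests passed 0.05 (lowest p 0.0561 among 243, exact permutation). Some could not: the smallest p possible was 0.25 in libraries titled w326 and 0.167 in those not so titled. For WT against knockouts with a WT library left out it was 0.111. The difference of WT from the knockouts changed sign for the chromosome 4 TAD length with windows narrowed by 0.5 Mb (-38.8 kb), with TADs wholly inside (-33.8 kb) and in libraries not titled w326 (-16 kb), against 39.4 kb. In those libraries it also did so for the share of the list on chromosome 4 (0.19 percentage points) and chromosome 2 (0.0425) and for the number of chromosome 4 TADs (0.8). The chromosome 2 share turned with windows widened by 0.5 Mb (0.00901) and with adjusted p at most 0.001 (0.169), and the chromosome 4 share staying inside with the 466 best pairs per library (-2.52). The causes were not tested.

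Counts moved with the matching. Identical bins gave 116 distinct pairs on chromosome 4, and E1-KO lost 0 and gained 5 and E2-KO gained 33 pairs. Within 2 bins, E1-KO lost 0, E2-KO 1 and E1&E3-dKO 1. At adjusted p 0.001, E1-KO lost 0 and gained 2, and every other knockout lost 1. With the best pairs, E1-KO lost 0, E2-KO gained 8, E3-KO lost 1 and gained 0. Boundaries matched within 10 kb left 1 in at least 8 libraries on chromosome 4; E1-KO lost 3 and gained 5, E2-KO lost 2, E3-KO lost 1 and gained 0, E1&E3-dKO lost 1. Within 50 kb there were 8 on chromosome 4 and 2 of 7 on chromosome 2; E1-KO lost 0 and gained 0, E2-KO lost 0 and gained 2, E3-KO lost 1 and gained 1, E1&E3-dKO lost 1. With 2715 best TADs chromosome 2 had 7 boundaries, and E2-KO lost 2 and E1&E3-dKO 3. Without both E2-KO libraries, chosen after seeing the data, there were 40 pairs and 24 boundaries on chromosome 4, with 1 in at least 8, and 7 boundaries on chromosome 2. Shares with a mirror neighbour kept within 1.5 times.

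Leaving out 1 library gave 57 to 69 distinct pairs on chromosome 4 and 1 to 2 on chromosome 2, with 14 to 17 and 1 to 1 in at least 5 libraries; 27 to 40 and 7 to 11 boundaries, with 2 to 4 and 1 to 1 in at least 8. Pairs lost came to 1 to 6 in E1-KO, 2 to 6 in E2-KO, 1 to 4 in E3-KO and 2 to 7 in E1&E3-dKO, and pairs gained to 3 to 10, 24 to 44, 2 to 15 and 2 to 20. Boundaries lost came to 1 to 5, 2 to 6, 1 to 4 and 0 to 4, and gained to 5 to 7, 3 to 18, 2 to 8 and 0 to 3. Differences of WT from the knockouts were -1.25 to -0.32 percentage points for the chromosome 4 share and -0.147 to 0.0676 for chromosome 2, 3.25 to 8.74 for the share staying inside, -0.75 to 0.75 for reads, -1.13 to -0.0714 and -0.5 to 0.5 for TADs, and 7.14 to 74.3 and 13.1 to 123 kb for their length.

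Libraries with the same replicate number had deviations that correlated at -0.0773 to 0.202 over the 10 pairs of genotypes, not all above 0.1, so the numbers were not taken to pair them. With the replicate block, where the smallest p is 0.04, the differences of WT from the knockouts were the same, with p = 0.72 for the chromosome 4 share (exact permutation, -0.792), and no call changed. Chromosome 2 TAD length was not run with narrowed windows or with TADs wholly inside, where a library had none, nor the genotype spread of chromosome 2 TAD numbers with narrowed windows, where all libraries had the same number. Pairs rest on a few reads, total depth is unknown, and absence from a list is not a count of 0.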
